A study of Mus musculus with 12 samples.

Results

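The forkhead (Fox) genes encode transcription factors that share a winged-helix DNA-binding domain and are sorted into lettered classes by sequence. Members were taken by name: every gene whose symbol in the deposited tables is Fox followed by a letter and a digit, which gave 35 of 12098 genes. They were grouped by role. Tissue-patterning classes, among them Foxb, Foxc, Foxd, Foxe, Foxf, Foxi, Foxl, Foxq and Foxs, here called patterning genes, held 18 members. The Foxa class, used by gut epithelium, held 3, the classes Foxo, Foxk, Foxj and Foxn, grouped as broadly expressed, held 10, and Foxh, Foxm and Foxp held the remaining 4. The grouping is by class letter only, so it places tissue-restricted genes such as Foxj1 and Foxn4 beside broadly expressed relatives.

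The DNA was that of colon epithelial cells of chow-fed C57BL/6 mice. In 3 induced mice the de novo DNA methyltransferase Dnmt3b was switched on with 0.5 g/l doxycycline in the drinking water, given for 3 months and renewed every 3 days, and 3 control mice had regular drinking water. From each animal came a library of short MspI fragments (40 to 120 nt) and a library of long ones (120 to 220 nt), 12 libraries in all, read by reduced representation bisulfite sequencing. Drug and induction cannot be told apart, since the controls received no doxycycline. The transgene's promoter, whether control mice carried it, and the age and sex of the mice are not stated in the labels.

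Values are mean CpG methylation levels of a gene's promoters, in percent. No read counts come with them, so the depth behind a level is unknown and a level of 0% can rest on few reads. A library listed 30 to 35 Fox genes and 7278 to 10838 genes in all. Of 12 epithelial marker genes, 5 had all 6 values among short and 7 among long fragments. All 5, and 6 of the 7, lay under 10% in both groups, Krt18 being the exception. Of all genes tested, 9052 of 10027 among short and 5347 of 6127 among long fragments were under 10% in control mice. Most genes share such low levels, so low marker levels alone do not identify the cells. Epcam was at 0% in all control libraries of both fractions. The list mean ran from 0.058% to 1.22% in control and 0.204% to 0.662% in induced short-fragment libraries, and from 3.25% to 4.08% and 4.33% to 5.65% among long fragments. Of stromal and muscle markers 3 of 4, and of endothelial markers 2 of 2, rose in the short fraction, where 27.6% of all genes rose, with list means of 5.07% to 6.94% and 2.07% to 3.65% in control against 41.9% to 54.5% and 76.0% to 80.0% in induced libraries. In the long fraction 3 of 3 stromal and muscle markers rose (23.2% of all genes), from list means of 1.10% to 2.25% to 35.8% to 72.0%. Of 12 immune markers 1, Coro1a, was measurable, in the long fraction, at 8.05% to 17.9% in control and 68.9% to 82.3% in induced libraries. The part of other cell types in the Fox results was not tested, and in bulk DNA a partial level in every cell and a full level in some cells cannot be told apart.

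As background, methylation of CpG-rich promoters goes with stable silencing, and most such promoters stay unmethylated in normal tissue whether or not the gene is active. Foxa proteins are pioneer factors that open chromatin in gut, liver and pancreas. Foxf1, Foxf2 and Foxl1 act in the gut mesenchyme beneath the epithelium, and Foxo proteins are held out of the nucleus by insulin and PI3K-Akt signalling. Several other Fox classes include factors of embryonic development outside the gut.

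Promoter sequences are shown for 6 members that span the responses described next. Foxd3 and Foxl2 gained most of their possible methylation, and Foxo3 gained 11.6 points among short and 18.4 among long fragments. Foxe3 rose in short fragments and did not exceed 0.16% in long ones. Foxa2, a gut factor, gained a few points, and Foxd2 stayed near 0. Each sequence is the 250 bases before the outermost RefSeq transcription start in assembly GRCm38.p6, 5′ to 3′ on the gene's strand. CG dinucleotides, the sites that Dnmt3b methylates, are in capitals. The sources used here do not give the authors' promoter window, so the CpGs behind a level need not be these.
Foxd3, chr4:99656049-99656298, plus strand: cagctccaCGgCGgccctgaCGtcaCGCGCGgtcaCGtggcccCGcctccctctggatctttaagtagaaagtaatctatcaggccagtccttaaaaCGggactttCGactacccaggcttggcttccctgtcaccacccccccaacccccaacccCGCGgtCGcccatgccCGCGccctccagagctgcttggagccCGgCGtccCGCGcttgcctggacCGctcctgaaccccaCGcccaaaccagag
Foxl2, chr9:98955357-98955606, plus strand: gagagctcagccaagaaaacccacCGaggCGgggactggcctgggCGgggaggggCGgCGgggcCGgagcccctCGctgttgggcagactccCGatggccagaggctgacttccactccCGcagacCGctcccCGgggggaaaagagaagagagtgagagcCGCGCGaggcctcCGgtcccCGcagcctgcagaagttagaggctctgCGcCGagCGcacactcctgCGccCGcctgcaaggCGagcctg
Foxo3, chr10:42276696-42276945, minus strand: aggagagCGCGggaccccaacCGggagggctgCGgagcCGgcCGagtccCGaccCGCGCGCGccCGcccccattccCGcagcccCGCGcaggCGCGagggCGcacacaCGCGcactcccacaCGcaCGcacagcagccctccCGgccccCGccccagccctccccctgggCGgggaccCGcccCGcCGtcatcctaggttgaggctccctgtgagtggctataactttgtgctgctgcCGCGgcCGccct
Foxe3, chr4:114926068-114926317, minus strand: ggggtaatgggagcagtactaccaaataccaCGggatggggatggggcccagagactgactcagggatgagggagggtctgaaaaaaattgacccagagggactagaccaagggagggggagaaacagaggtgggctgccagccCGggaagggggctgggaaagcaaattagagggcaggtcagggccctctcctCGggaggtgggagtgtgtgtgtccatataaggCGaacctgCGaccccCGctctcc
Foxa2, chr2:148046970-148047219, minus strand: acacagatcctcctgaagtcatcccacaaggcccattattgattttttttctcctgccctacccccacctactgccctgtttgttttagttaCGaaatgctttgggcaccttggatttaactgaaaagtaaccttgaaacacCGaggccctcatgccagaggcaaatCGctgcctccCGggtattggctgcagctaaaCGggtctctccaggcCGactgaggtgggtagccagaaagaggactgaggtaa
Foxd2, chr4:114908899-114909148, minus strand: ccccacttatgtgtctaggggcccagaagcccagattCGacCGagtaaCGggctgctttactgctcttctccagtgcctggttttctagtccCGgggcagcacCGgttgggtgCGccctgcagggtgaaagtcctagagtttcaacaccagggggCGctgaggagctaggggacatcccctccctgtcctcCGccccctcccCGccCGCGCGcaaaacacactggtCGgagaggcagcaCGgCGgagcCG

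These windows hold 21 CG in Foxd3, 22 in Foxl2, 31 in Foxo3, 6 in Foxe3, 6 in Foxa2 and 16 in Foxd2. CCGG, the MspI site, which reads the same on both strands and contains a CG, occurs once in Foxd3, Foxe3 and Foxa2, 2 times in Foxd2 and 3 times in Foxl2 and Foxo3. Windows at other RefSeq starts of Foxa2, whose sequences are not shown, held 13 and 20 CG, more than the 6 of its outermost window. RefSeq windows were matched by gene ID for 19 members (21 windows). All of them held a CG, against 99.3% of windows of genes in the tables and 92.1% of all windows of this length, and 71.4% held CCGG, against 76.0% and 47.1%. CG content overlapped between members of different response: the 6 genes that gained over 50 points among short fragments had 7 to 22 CG per window (median 19), the 5 with 10 to 50 points had 3 to 31 (median 12), and the 8 that changed by under 10 points had 6 to 36 (median 20, 10 windows). The CpG-poorest window, that of Foxi2 with 3 CG, belonged to a gene that gained 41.9 points.

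**Figure D1:**
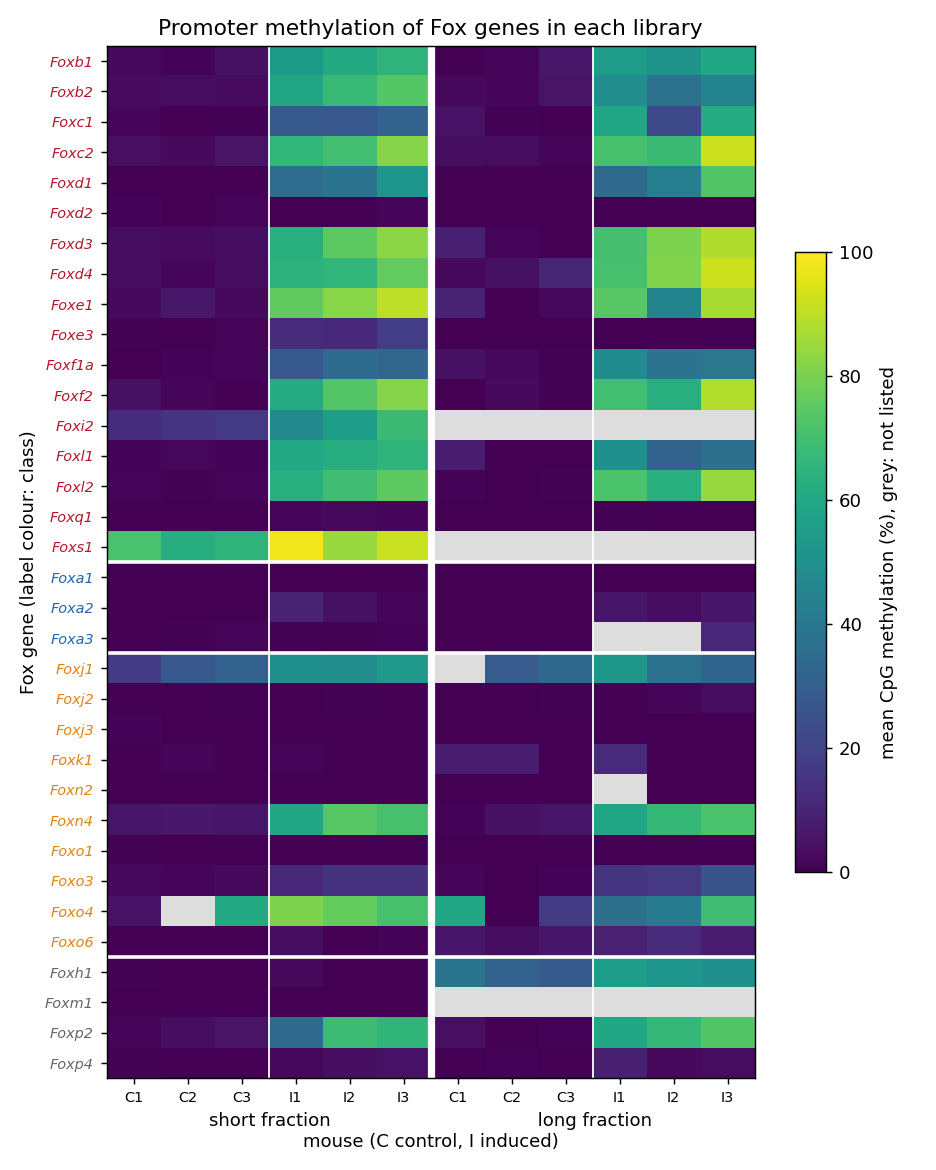
Mean CpG methylation (colour, 0 to 100%) of 34 Fox genes (rows) in 6 short-fragment and 6 long-fragment libraries (columns: control mice C1 to C3, induced mice I1 to I3). Gene names are red for patterning genes, blue for Foxa, orange for Foxo, Foxk, Foxj and Foxn, and grey for Foxh, Foxm and Foxp, and grey cells are genes not listed in a library. Most patterning genes turn from dark to light in the induced mice, and Foxd2 and Foxq1 stay dark throughout.

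Induced and control mice were compared to ask which Fox promoters gain methylation when Dnmt3b is raised. Of the 35 members 34 were listed in all 6 short-fragment and 29 in all 6 long-fragment libraries, and only these were tested. In the short fraction 22 of 34 rose and 0 fell (limma, adjusted p under 0.05; 0 lower at an unadjusted p under 0.05 as well), where 27.6% of all 10027 genes tested rose and 0.0798% fell. Among long fragments 17 of 29 rose and 0 fell (limma; 0 lower at an unadjusted p as well), against 23.2% and 0.0163% of all 6127 genes. Levels of the induced mice were all above those of the control mice in 24 of 34 Fox genes of the short and 21 of 29 of the long fraction, against 39.5% and 38.2% of all genes, and all below in 0 and 0, against 0.908% and 0.277%. A rise of over 10 points was seen in 20 and 18 Fox genes (27.2% and 31.2% of all genes), and an induced mean of 50% or more in 15 and 12 (18.5% and 20.4% of all genes). The median change was 25.3 points over the Fox genes and 0.50 over all genes among short fragments, and 37.2 and 0.943 among long ones. Of the Fox genes under 10% in control mice, 12 of 31 reached 50% or more among short and 11 of 27 among long fragments, against 14.1% and 14.8% of all genes under 10%. The long-fraction count of 17 was 11 when control mouse 2 or control mouse 3 was left out, and the count over all genes there fell from 1422 to 905, 885 and 897 without control mouse 1, 2 and 3.

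The counts and median changes are given by class. Among patterning genes 17 of 18 rose in the short fraction, with a median change of 59.5 points and a median level of 2.28% in control and 64.7% in induced mice. Among long fragments 12 of 16 rose, with a median change of 51.6 points. Of the broadly expressed group 3 of 9 rose among short and 2 of 8 among long fragments, with median changes of 0.20 and 2.75 points. Over all genes 27.6% and 23.2% rose, with median changes of 0.50 and 0.943 points. The counts of the broadly expressed group are thus near the share of all genes. Its members that rose were Foxj1, Foxn4 and Foxo3 among short and Foxn4 and Foxo3 among long fragments. Of the Foxa genes 0 of 3 rose in the short fraction (limma; 0 at an unadjusted p under 0.05) and 1 of 2 in the long, with median changes of 0.010 and 2.5 points. These are descriptions of groups drawn up by class letter, and the difference between classes was not tested.

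**Figure D2:**
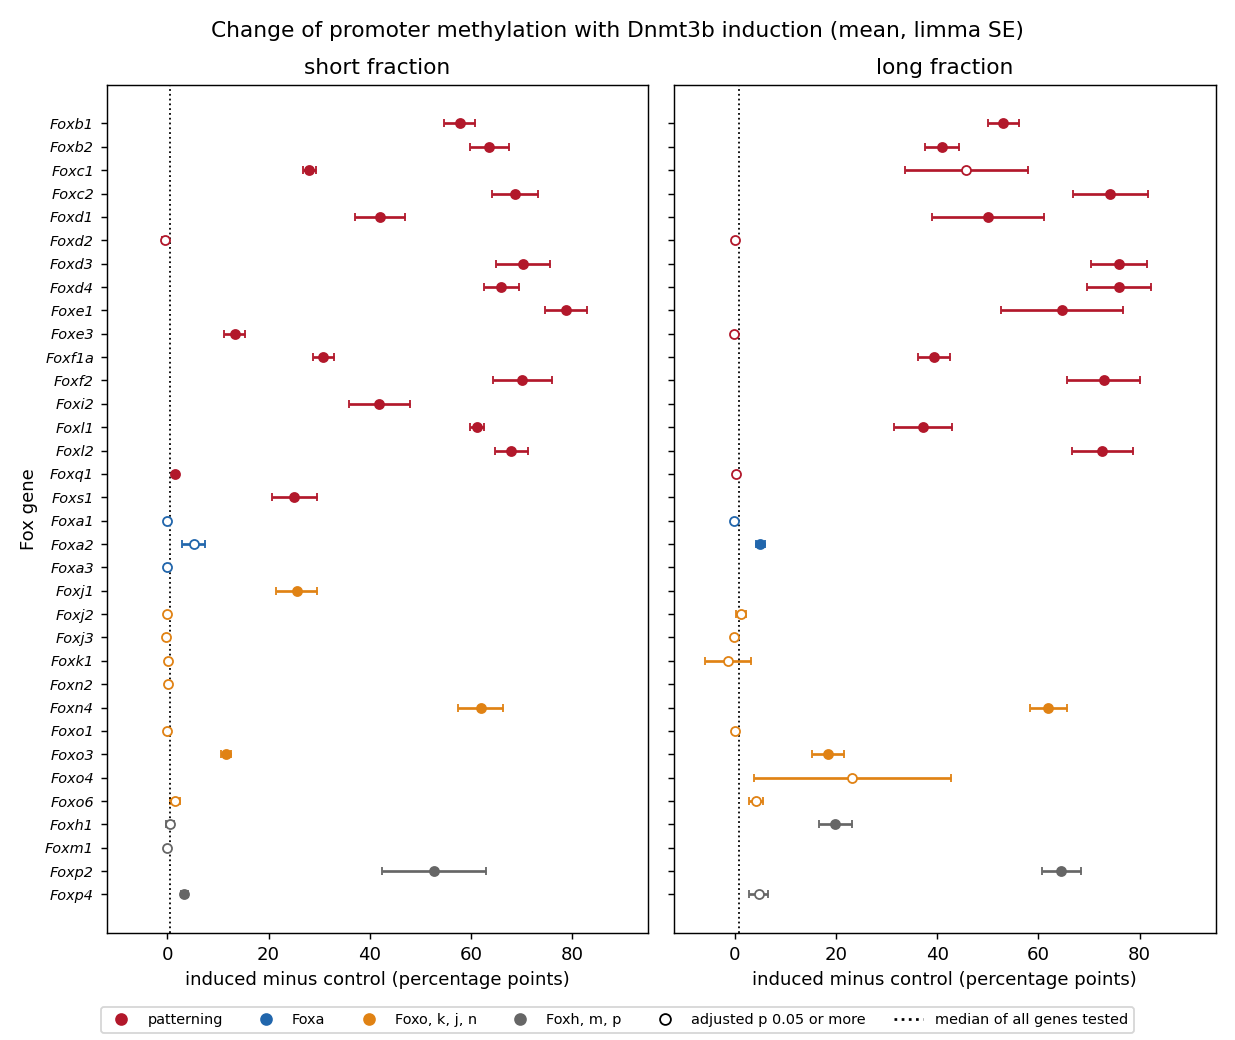
Induced minus control methylation in percentage points for the Fox genes shown that all 6 libraries of the short (left) or long (right) fraction list, with the limma standard error. Filled points had an adjusted p under 0.05, and the dotted line is the median of all genes tested (0.50 and 0.943 points). Patterning genes (red) lie mostly between 25 and 79 points, and the Foxa genes (blue) lie within 6 points of 0.

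Foxe1, Foxd3 and Foxf2 had the largest rises among short fragments. Foxe1, a factor of thyroid and palate development, was at 2.71%, 6.32% and 2.46% in control mice 1, 2 and 3 and at 75.6%, 82.1% and 90.0% in induced mice 1, 2 and 3, a change of 78.7 points (SE 4.10, limma adjusted p = 0.000435). Foxd3, which maintains neural crest and pluripotent cells, was at 3.43%, 2.90% and 3.57% in the controls against 63.3%, 74.8% and 82.7% in the induced mice (change 70.3 points, SE 5.32, adjusted p = 0.000988). Foxf2, a factor of gut and palate mesenchyme, was at 4.45%, 1.55% and 0.03% against 61.5%, 73.1% and 82.0% (change 70.2 points, SE 5.74, adjusted p = 0.00122). In all 3 genes every induced mouse lay more than 50 points above every control mouse, and induced mouse 3 was the highest.

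Foxd3, Foxd4 and Foxc2 had the largest rises among long fragments. Foxd3 was at 8.82%, 1.94% and 0.27% in the controls against 70.5%, 80.3% and 88.1% in the induced mice, a change of 75.95 points (SE 5.45, limma adjusted p = 0.00170). Foxd4, expressed in the early neural plate, was at 2.39%, 4.38% and 10.2% against 71.0%, 81.0% and 92.5% (change 75.9 points, SE 6.31, adjusted p = 0.00229). Foxc2, a factor of lymphatic vessels and mesoderm, was at 3.70%, 3.43% and 1.51% against 70.7%, 68.2% and 92.5% (change 74.2 points, SE 7.36, adjusted p = 0.00378). Groups were again far apart in each gene. Foxe1 was more spread here, with induced levels of 73.8%, 45.1% and 86.8% and control levels of 9.66%, 0.11% and 1.97% (change 64.7 points, adjusted p = 0.0226), and it did not pass once control mouse 1, 2 or 3 was removed (adjusted p = 0.0789, 0.0941 and 0.0931), nor once induced mouse 1 was (0.0735).

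Patterning genes of brain, ovary and kidney rose as well. In the short fraction Foxb1, a factor of the hypothalamus, went from 2.54% ± 1.77 to 60.3% ± 5.38, and Foxl2, the ovarian granulosa cell factor, from 1.24% ± 0.615 to 69.2% ± 5.97 (SD, n = 3 each). Their long-fraction levels were 2.60% ± 3.46 and 55.7% ± 4.25, and 0.453% ± 0.482 and 73.1% ± 10.96. Both genes passed in both fractions and kept their calls whichever library was left out. Foxd4, from 2.63% ± 1.05 to 68.6% ± 6.27 among short fragments, and Foxf2, from 1.0% ± 1.31 to 73.9% ± 13.2 among long ones, passed in both fractions too. Foxd1, a factor of kidney stroma, went from 0.12% ± 0.102 to 42.1% ± 9.07 among short fragments. In the long fraction its induced levels were 34.5%, 43.3% and 72.9% against control levels of 0%, 0% and 0.32% (limma adjusted p = 0.0382), which did not hold once control mouse 1, 2 or 3 was removed (adjusted p = 0.132, 0.130 and 0.131), nor once induced mouse 2 was (0.0891).

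Foxi2 and Foxs1 started from higher levels and were listed in the short fraction only. Foxi2 was at 13.0%, 15.1% and 17.1% in the controls against 46.96%, 55.6% and 68.4% in the induced mice (change 41.9 points, SE 5.97, limma adjusted p = 0.00710). Foxs1, which is expressed in pericytes and sensory ganglia, was already at 71.3%, 62.3% and 65.0% in control and reached 97.96%, 84.5% and 91.5% (change 25.1 points, SE 4.44, adjusted p = 0.0149). It had the highest control level of the 34 Fox genes tested. Without control mouse 2, control mouse 3 or induced mouse 3 the adjusted p was 0.0613, 0.0674 and 0.0573 (limma).

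Foxd2, Foxq1 and Foxe3 had the smallest changes of the patterning genes in both fractions. Foxd2, a factor of craniofacial and kidney mesenchyme, was at 0.89%, 0.01% and 1.57% in the controls against 0.02%, 0.01% and 1.23% in the induced mice among short fragments (limma adjusted p = 0.677). Among long fragments none of its levels exceeded 0.08% (adjusted p = 0.975). The groups overlapped in both fractions, and Foxd2 was the sole patterning gene that passed in neither. Foxq1, known for hair shaft formation and for mucin expression in the stomach, was at 0.05%, 0.33% and 0.02% against 1.29%, 2.13% and 1.44% in the short fraction, a change of 1.49 points (SE 0.265, adjusted p = 0.0151) that did not pass without control mouse 1 or 3 (adjusted p = 0.0688 and 0.0683). In the long fraction it was at 0% in all control mice and at 0.46%, 0.18% and 0.10% in induced mice (adjusted p = 0.243).

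Fox genes that neighbour each other on a chromosome are described together. By RefSeq gene order, Foxq1, Foxf2 and Foxc1 follow each other on chromosome 13 with 0 protein-coding genes between them. Their short-fraction changes were 1.49, 70.2 and 28.1 points. Foxc1, a factor of eye and skull development, was at 1.47%, 0.24% and 0.70% in the controls against 27.8%, 27.2% and 31.6% in the induced mice there (limma adjusted p = 0.000351). Among long fragments Foxc1 was at 4.99%, 0.61% and 0% against 58.8%, 22.3% and 61.9%, without overlap but also without passing (adjusted p = 0.0664), and it passed without induced mouse 2, the lowest of the 3 (adjusted p = 0.00169). It also passed on an arcsine scale (adjusted p = 0.0248), without genes of a mean under 1% (0.0137) and in a fit over both fractions (0.00298).

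On chromosome 8 Foxf1a (the table's symbol for Foxf1), Foxc2 and Foxl1 lie together, with 1 protein-coding gene between the first and the second. Foxf1a, which drives differentiation of visceral mesoderm, went from 0.973% ± 0.563 to 31.8% ± 3.83 among short and from 2.48% ± 1.87 to 41.8% ± 5.45 among long fragments (SD, n = 3 each). Foxc2 between them went from 3.91% ± 1.40 to 72.6% ± 8.10 among short fragments. Foxl1, a factor of the subepithelial cells that supply the crypt with Wnt, had the tightest change of any Fox gene relative to its error: 1.08%, 2.16% and 1.05% in control against 60.5%, 62.2% and 65.2% in induced mice (change 61.2 points, SE 1.35, limma adjusted p = 8.04e-05). The long-fragment levels of Foxl1 were 7.69%, 0% and 0.02% in the controls against 50.3%, 32.0% and 36.9% in the induced mice (adjusted p = 0.0130), and it did not pass once control mouse 2 or 3 (adjusted p = 0.0633 and 0.0631) was removed.

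Foxd2 and Foxe3 are direct neighbours on chromosome 4 with 0 protein-coding genes between them. Foxe3, a lens factor, was at 0.56%, 0.05% and 1.55% in the controls against 12.8%, 11.1% and 18.3% in the induced mice among short fragments (change 13.3 points, SE 2.07, limma adjusted p = 0.00959). Among long fragments no Foxe3 level exceeded 0.16% in any of the 6 libraries (adjusted p = 0.617). The 4 other Fox genes of chromosome 4, Foxe1, Foxd3, Foxj3 and Foxo6, are separated from this pair by 111 or more protein-coding genes.

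Foxa1 and Foxa3 passed in no test. Foxa1 was at 0.09%, 0.03% and 0.05% in the controls against 0%, 0% and 0.07% in the induced mice in the short fraction, and no long-fragment level exceeded 0.14% (limma adjusted p = 0.696 and 0.529). Foxa3 was at 0.15%, 0.44% and 1.58% against 0.64%, 0.59% and 0.97% in the short fraction (adjusted p = 1.0). It was listed in 4 long-fragment libraries, at 0% in all 3 control mice and at 11.2% in induced mouse 3, and was not tested there. The groups of Foxa1 and Foxa3 overlapped among short fragments.

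Foxa2 changed by about 5 points in both fractions and passed in the long one. The endoderm of the embryo and the gut tube depend on it. In the short fraction it was at 0.03%, 0.19% and 0% in the controls against 9.80%, 4.47% and 1.58% in the induced mice (change 5.21 points, SE 2.27, limma adjusted p = 0.211). In the long fraction it was at 0.11%, 0% and 0% against 6.11%, 3.25% and 5.98% (change 5.08 points, SE 0.888, adjusted p = 0.0188). Every induced mouse lay above every control mouse in both fractions, as was the case for 39.5% and 38.2% of all genes. The long-fraction change did not pass once control mouse 1, 2 or 3 (adjusted p = 0.0789, 0.0797 and 0.0806), induced mouse 1 (0.0514) or induced mouse 3 (0.0603) was removed, nor when genes with a mean under 1% were dropped (adjusted p = 0.114) or both fractions were fitted together (adjusted p = 0.0590). The short-fraction change passed on an arcsine scale (adjusted p = 0.0418). The long-fragment change minus the short-fragment change of Foxa2 was -0.133 points (interaction adjusted p = 0.985).

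Of the Foxo genes, whose proteins switch on stress resistance and cell cycle arrest genes when insulin signalling is low, Foxo3 rose and Foxo1 did not. Foxo3 was at 1.99%, 1.26% and 2.42% in the controls against 11.4%, 14.6% and 14.4% in the induced mice among short fragments (change 11.6 points, SE 1.03, limma adjusted p = 0.00155). Long-fragment levels were 1.82%, 0.17% and 0.86% against 15.3%, 16.8% and 26.1% (change 18.4 points, SE 3.23, adjusted p = 0.0189), which did not hold once control mouse 1, 2 or 3 (adjusted p = 0.0753, 0.0818 and 0.0806) was removed. The groups did not overlap in either fraction. Foxo1 did not exceed 0.44% in any of the 12 libraries (adjusted p = 0.593 and 0.681). Foxo6, expressed mainly in brain, was at 0.0433% and 1.59% in the short and 5.17% and 9.45% in the long fraction and passed in neither (adjusted p = 0.382 and 0.118), although it passed among long fragments in a fit over both fractions (adjusted p = 0.0264).

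Foxo4 is the X-linked member, and it varied more between mice than any other. Among long fragments it was at 59.9%, 0% and 17.6% in control mice 1, 2 and 3 and at 36.98%, 41.1% and 69.2% in induced mice, a change of 23.3 points that did not pass (SE 19.5, limma adjusted p = 0.564). In the short fraction it was at 4.95% and 60.95% in control mice 1 and 3, was not listed for control mouse 2, and was at 80.7%, 76.4% and 70.9% in induced mice, with no test for want of the sixth library. The order of control mice 1 and 3 was opposite in the 2 fractions. Control mouse 2 had a median over X-linked genes of 0.065% among short and 0% among long fragments, and the other 2 control mice had 33.2% to 37.0%. In induced mice that median was 48.9% to 55.7% in the short and 52.7% to 62.4% in the long fraction. The part of the X-chromosome level in the Foxo4 values was not tested. Without control mouse 2 the long-fraction change of Foxo4 was 10.3 points (adjusted p = 0.796).

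**Figure D3:**
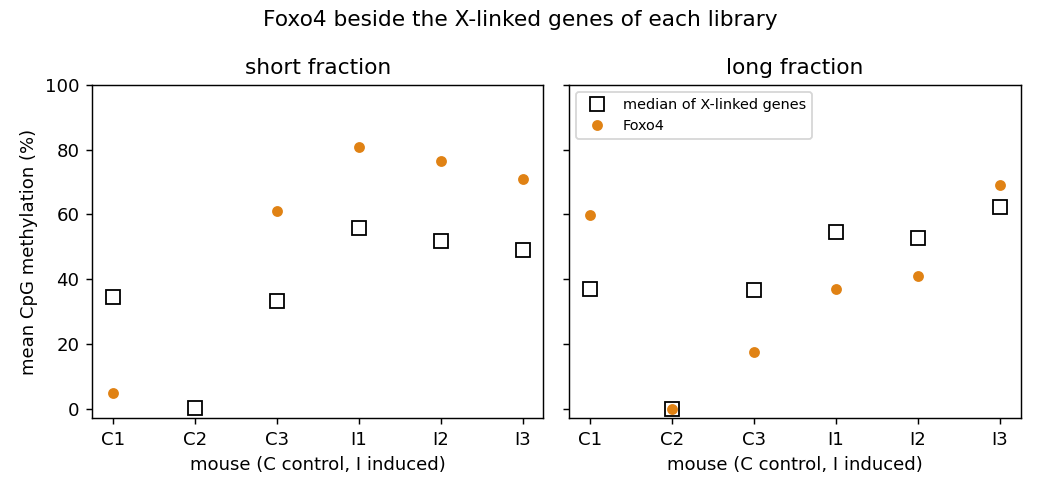
Methylation of Foxo4 (circles) and the median of the listed X-linked genes (squares) in percent for each control (C1 to C3) and induced (I1 to I3) mouse, in the short (left) and long (right) fraction. Control mouse 2 lies at or near 0 for the X-linked genes in both fractions, and Foxo4 is not listed for it among short fragments.

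Foxk1, Foxj2, Foxj3 and Foxn2 did not pass in any fraction where they were tested. Foxk1, which takes part in muscle progenitor and metabolic gene control, was at 0% to 1.28% over all 6 short-fragment libraries. Its long-fragment levels were uneven within both groups, at 8.13%, 8.03% and 0% in the controls against 11.9%, 0% and 0.04% in the induced mice (limma adjusted p = 0.885). Foxj2 and Foxj3 had group means of 0.06% to 1.5%, and Foxn2 had means of 0.0767% and 0.123% among short fragments and at most 0.08% in the 5 long-fragment libraries that list it. Foxj3 had the same values as AA415398 in every library, and Foxm1 the same as 5930416I19Rik, so these pairs are each 1 measurement.

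Foxn4 and Foxj1 rose in the short fraction and Foxn4 in both. Foxn4, a factor of retinal progenitors and spinal interneurons, was at 5.65%, 6.83% and 5.59% in the controls against 58.8%, 74.2% and 70.8% in the induced mice among short fragments, and at 0.87%, 4.46% and 5.58% against 58.96%, 66.6% and 71.4% among long ones. Its change was 61.9 and 62.0 points (SE 4.41 and 3.70, limma adjusted p = 0.00085 and 0.00114). Foxj1, the master factor of motile cilia, was at 17.9%, 27.1% and 31.6% against 50.2%, 49.5% and 53.5% in the short fraction (change 25.5 points, SE 3.98, adjusted p = 0.00969). Among long fragments it was at 28.8% and 33.9% in control mice 2 and 3 and 53.1%, 37.6% and 32.4% in induced mice, where the groups overlapped and no test was made.

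Foxp2 and Foxh1 rose among the remaining members, and Foxp4 by a few points. Foxp2, a factor of brain circuits and lung epithelium, was at 1.38%, 3.78% and 5.28% in the controls against 34.7%, 68.4% and 65.4% in the induced mice in the short fraction (change 52.7 points, SE 10.2, limma adjusted p = 0.0204). With control mouse 1, 2 or 3 removed the adjusted p was 0.0851, 0.0791 and 0.0769, and with induced mouse 2 or 3 removed it was 0.0601 and 0.0707 (limma). Among long fragments Foxp2 was at 3.98%, 0.38% and 0.91% against 59.5%, 66.6% and 72.8% (change 64.6 points, SE 3.81, adjusted p = 0.00112) and kept its call whichever library was left out. Induced mouse 1 was the lowest in both fractions.

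Foxp4, expressed in lung and gut epithelium, has 3 promoter accessions in the tables with identical values. It was at 0.58%, 0.26% and 0% in the controls against 2.26%, 3.84% and 4.83% in the induced mice in the short fraction (change 3.36 points, limma adjusted p = 0.0288). It did not pass once control mouse 1, 2 or 3 was removed (adjusted p = 0.0904, 0.103 and 0.110), nor once induced mouse 2 was (0.0974), nor in a fit over both fractions (adjusted p = 0.153) or when genes with a mean under 1% were dropped (adjusted p = 0.0861). Among long fragments it was at 0.02%, 0.79% and 0% against 8.95%, 2.66% and 3.33% (adjusted p = 0.196), and passed without induced mouse 1 (adjusted p = 0.0214) and in the fit over both fractions (adjusted p = 0.0417). Foxm1, a driver of mitotic genes, had means of 0.14% and 0.113% in the short fraction (adjusted p = 0.919).

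Short and long fragments cover different CpGs of a promoter, and the change was compared between them with limma, over the 5309 genes that all 12 libraries list and with each mouse as a random effect. Of 28 Fox genes 3 passed, Foxe3, Foxh1 and Foxb2, against 4.71% of all genes, and none of the 3 calls held under every alternative, as given beside Foxb2. In the fits per fraction 15 of these 28 rose in both fractions, 4 in the short only, 2 in the long only, and 7 in neither. These counts alone do not test a difference. The matching shares of all 5309 genes were not computed, so the counts only describe the Fox genes. Foxh1, the DNA-binding partner of Smad proteins in Nodal signalling, was at 0.73%, 0.03% and 0.03% in the controls against 2.36%, 0.03% and 0% in the induced mice among short fragments. Among long fragments it was at 38.95%, 31.1% and 28.5% against 55.5%, 52.5% and 50.2% (limma adjusted p = 0.0167). The long-fragment change exceeded the short by 19.4 points (SE 3.34, interaction adjusted p = 0.0115), and the control levels were also higher among long fragments. The long-fraction rise of Foxh1 did not pass once control mouse 2 or 3 (adjusted p = 0.0749 and 0.0569), induced mouse 1 (0.0525) or induced mouse 2 (0.0605) was removed.

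Foxb2, a factor of the developing brain, rose in both fractions. It was at 2.75%, 3.35% and 2.91% in the controls against 59.2%, 67.4% and 73.5% in the induced mice in the short fraction, and at 2.08%, 1.26% and 5.22% against 48.9%, 37.4% and 45.2% in the long. The long-fragment change minus the short-fragment change was -22.7 points (SE 5.21, interaction adjusted p = 0.0444). Foxe3, with its short-fragment gain only, had a difference of -13.4 points (SE 2.06, adjusted p = 0.00613). Foxl1 had a difference of similar size in the same direction, -24.1 points, that did not pass (adjusted p = 0.0573). The count of 3 was 1, 0 and 1 without control mouse 1, 2 and 3 (5 at an unadjusted limma p under 0.05 each time) and 5 without induced mouse 1. Over all genes the count of 250 was 131, 125 and 158 without control mouse 1, 2 and 3 and 441 without induced mouse 1. Foxe3 had adjusted p = 0.0639 and 0.0647 without control mouse 1 or 2, Foxh1 had 0.0960 and 0.0530 without control mouse 2 or 3, and Foxb2 had 0.0789 to 0.231 without any mouse but induced mouse 1. When the difference was taken within each mouse none of the 3 passed (limma adjusted p = 0.0564 for Foxe3, 0.0536 for Foxh1 and 0.182 for Foxb2, with 6 Fox genes at an unadjusted p under 0.05). Of all genes 137 passed there. The share of all genes at an unadjusted p was not computed for these comparisons, so the unadjusted counts only describe the Fox genes. On an arcsine scale Foxh1 (adjusted p = 0.126) and Foxb2 (0.0821) did not pass.

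**Figure D4:**
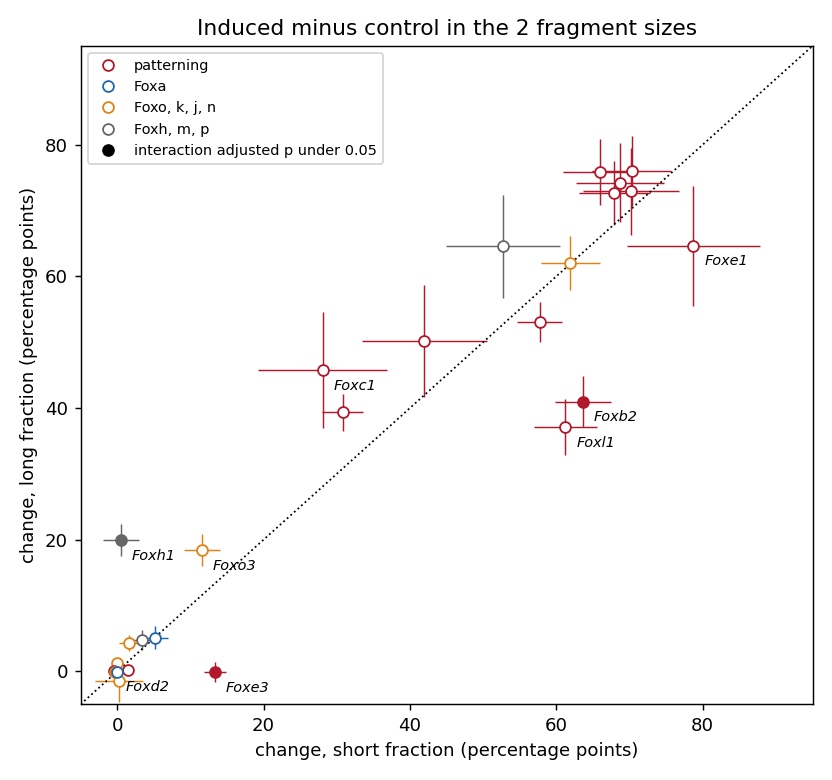
Change in the short fraction (horizontal) against change in the long fraction (vertical), in percentage points with standard errors, for 27 Fox genes in all 12 libraries, from 1 fit over both fractions. Filled points are Foxe3, Foxh1 and Foxb2, whose change differed between the fractions in this fit but not under every alternative. The dotted line marks equal change. Foxe3 and Foxb2 lie below the line and Foxh1 above it.

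Induced mouse 3 had the highest level for 16 of the 22 Fox genes that rose in the short fraction and for 12 of 17 in the long. Over all genes that rose the shares were 59.0% and 59.6%. The mean level over the tested Fox genes was 31.2%, 34.1% and 37.5% in induced mice 1, 2 and 3 among short and 36.0%, 32.8% and 42.8% among long fragments, and that over all tested genes was 16.3%, 16.9% and 18.4% and 18.3%, 18.7% and 21.2%.

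Genes of the same tissues or pathways as some Fox factors were read from 4 lists. The lists were drawn from general knowledge, with earlier results of these data known, so their counts are not independent support. Of gut transcription factors 5 of 12 rose in the short and 3 of 11 in the long fraction, with median changes of 1.09 and 0.353 points. Over all genes 27.6% and 23.2% rose and the median changes were 0.50 and 0.943 points, so the long-fraction count is near the share of all genes. The largest rises were those of Gata5, a factor of heart and gut endoderm (11.04% ± 3.21 to 78.1% ± 11.8 among short fragments), and Onecut2, a factor of liver and pancreas (0.857% ± 0.405 to 63.5% ± 9.97; SD, n = 3 each). The long-fraction levels of these 2 genes went from 4.27% ± 1.26 to 75.3% ± 22.99 and from 1.53% ± 2.14 to 64.8% ± 17.1. Of genes for gut mesenchyme signals, which act beside Foxf1, Foxf2 and Foxl1, 10 of 13 and 7 of 9 rose, against 27.6% and 23.2% of all genes, with median changes of 52.2 and 38.8 points, against 0.50 and 0.943. Barx1, a stomach mesenchyme factor, went from 0.33% ± 0.122 to 77.8% ± 10.5 among short fragments. In the long fraction Nkx2-3, a factor of gut and spleen mesenchyme, went from 1.39% ± 2.41 to 67.6% ± 13.8 and Gli2, a Hedgehog effector, from 8.30% ± 2.27 to 73.0% ± 19.9.

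The Foxo pathway was read from lists of upstream genes and of targets. Of genes upstream of Foxo in insulin and PI3K-Akt signalling 2 of 16 rose in the short and 1 of 12 in the long fraction, with medians of 0.0467 and 0.285 points, where 27.6% and 23.2% of all genes rose. Irs1, the insulin receptor substrate, was at 0.287% and 20.2% (limma adjusted p = 0.0576), and Pik3r1, a PI3K regulatory subunit, went from 0.253% ± 0.147 to 16.2% ± 7.36 (SD, n = 3; adjusted p = 0.0479) among short fragments. Among long fragments Pik3r1 was at 10.1% and 43.6% without passing (adjusted p = 0.0799) and Pik3r2 went from 0.723% to 9.85% (adjusted p = 0.00475). Of Foxo targets 3 of 12 and 1 of 11 rose, with medians of 0.22 and 0.090 points, and the short-fraction count is near the share of all genes. Klf2, a factor of endothelial and lymphocyte quiescence, went from 0.433% ± 0.386 to 21.8% ± 1.59 and Gadd45a, a DNA damage response gene, from 0.010% ± 0.0173 to 13.5% ± 1.05 among short fragments. Among long fragments Klf2 was at 25.6% and 26.6% (limma adjusted p = 0.975) and Gadd45a at 0.0133% and 0.173% (adjusted p = 0.596). In the long fraction Bcl6, a transcriptional repressor, went from 0.0833% ± 0.0802 to 5.35% ± 0.223, and Bcl2l11, which promotes apoptosis, was at 0.55% and 3.74% (adjusted p = 0.182).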

How the data were processed

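Per the labels' protocols, DNA was cut with MspI, size-selected, ligated to methylated adapters, bisulfite-treated with extra conversion cycles and sequenced on a Genome Analyzer II. Each library has 1 deposited table, which, per the file headers, gives CpG methylation as a mean fraction (0 to 1) for genes and for RefSeq promoter accessions. The sources used here do not name an aligner, build, promoter window or coverage filter, and without coverage no counting interval can be given, so precision rests on the 3 mice per group. Gene fractions were multiplied to percent. Genes that all 6 libraries of a fraction list were compared with limma 3.58.1 (lmFit, eBayes) in R 4.3.3, induced minus control, with Benjamini-Hochberg adjustment over all genes of that fraction (10027 or 6127) and a threshold of 0.05. Unless another tool is named, adjusted p-values come from these fits, and intervals are SD over mice or the limma SE. The scripts were tested on simulated data. All 35 Fox gene IDs matched the RefSeq gene table of GRCm38.p6, which gave chromosomes, gene order and X linkage. Sequences are RefSeq's. The 2 libraries of a numbered mouse were treated as 1 animal, as the series design states a split of each mouse, and their deviations from group means correlated at 0.0559 to 0.613 across genes. Alternatives were another scale, variance model, presence and level filters, promoter rows, a joint fit, blocks and leaving out each library. Values per library are given for all Foxa members, the 3 largest rises per fraction, patterning members that did not pass, other members that passed or moved by over 10 points, the X-linked member and those whose change differed between fractions, and for some further members by choice. The 2 largest changes of each related list were named. Values of some single genes, counted in the totals, are not reported here. Members, lists and rules were chosen with earlier results of these data known. Tables and plots were made with matplotlib 3.10.9, pandas 2.3.3 and Python 3.11.15.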

Additional observations from a re-analysis of the deposited data

Results flagged for a closer look

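The change with induction differed between the fragment sizes in 3 of 28 Fox genes by a limma interaction test, against 4.71% of all genes. The count was 1 on an arcsine scale and 0 when the difference was taken within each mouse. Without control mouse 1, 2 and 3 it was 1, 0 and 1. None of the 3 calls held under every alternative. Over all 5309 genes the count was 250, against 242 on the arcsine scale and 137 within each mouse. Without control mouse 1, 2 and 3 the count over all genes was 131, 125 and 158. The long-fragment change minus the short-fragment change was 19.4 points for Foxh1, -22.7 points for Foxb2 and -13.4 points for Foxe3.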

How the results depend on the processing

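No Fox gene that passed changed sign under the alternatives run. Foxk1, which did not pass in the long fraction (-1.40 points), was at 0.588 and 0.568 points without induced mouse 2 and 3, in a range of -5.37 to 0.588 over the libraries left out. Of the calls in the short fraction 18 of 22, and in the long fraction 11 of 17, held whichever library was left out. The matching share of all genes called was not computed, so these counts only describe the Fox genes. Leaving out each library gave 18 to 22 Fox genes among short and 11 to 16 among long fragments. Over all genes it gave 2227 to 3029 in the short and 885 to 1528 in the long fraction. The change differed between fractions in 0 to 5 Fox genes, and in 125 to 441 of all genes. Class medians then ran from -0.0567 to 0.438 points for Foxa among short and from 17.7 to 22.98 for Foxh and Foxp among long fragments. The number of Fox genes whose change differs was 1 on the arcsine scale and 0 from differences within each mouse (6 at an unadjusted limma p under 0.05). Over all genes it was 242 and 137, and the share at an unadjusted p was not computed. Without the mouse block 2 Fox genes and 240 of all genes differed, Foxb2 having adjusted p = 0.0511. The joint fit tested fewer genes and called 1575 in the short fraction. On its genes the short-fraction medians were 2.59 points for Foxa and 3.36 for the remaining classes. Promoter rows, which count Foxp4 3 times, gave remaining-class medians of 3.36 points among short and 4.71 among long fragments. Genes in 2 of 3 libraries per group added Foxo4, and the median of the broadly expressed group became 0.872 points in the short fraction. Control and induced mice share numbers but are different animals, and same-numbered libraries had deviations correlated at -0.0498 to 0.0736. With the replicate number as a block 20 Fox genes passed among short and 13 among long fragments, 2 differed between fractions, and the count over all genes in the long fraction was 652. The cause was not tested for any of these.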
